A study of Mus musculus with 15 samples.

Results

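The genes described here encode the proteins of the cytosolic ribosome, followed in left ventricular cardiomyocytes of mice after a low dose of iron ions. They were chosen by symbol alone: Rpl, Rps or Rplp followed by a number, with an optional letter or X, and Rpsa, leaving out pseudogenes, S6 kinases and like genes ending in l. The rule found 53 members among 19937 named genes, of which 33 belong to the large subunit with its stalk and 20 to the small subunit. The gene table holds 76 genes that fit the rule. Of the 23 others, 16 had only probe sets shared with other symbols and 7 were not listed, so these are not analysed here.

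All cells came from male C57Bl/6NT mice, 8 to 9 months old, with no other genotype or agent named, and all were isolated by collagenase digestion. The controls were sham exposed (2 arrays on day 1 and 1 array on day 3). The exposed mice received whole-body iron ions at 0.15 Gy, with a linear energy transfer of 151 keV per µm. Exposed cells were taken on day 1 (3 arrays), day 3 (3 arrays), day 7, day 14 and day 28 (2 arrays each). No sham array later than day 3 is used here, so for days 7, 14 and 28 the exposure cannot be told apart from the time elapsed. Whether the replicate arrays stem from different mice is not stated in the labels, so p-values reflect array-to-array spread only, which could be technical.

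A ribosome has a small subunit, which reads the mRNA, and a large subunit, which joins the amino acids. Its proteins are made in matching amounts from many separate genes, and their mRNAs typically begin with a run of pyrimidines, the 5′ terminal oligopyrimidine tract, through which mTOR and Larp1 control their translation. Ribosome number sets how much protein a cell can make, and it rises during hypertrophic growth of the heart muscle.

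A pyrimidine run near an annotated start is shown for some members named below. It is read from RefSeq promoters on GRCm38.p6 in the direction of transcription. Capitals mark a run of at least 6 pyrimidines that opens with C and begins within 25 bases of an annotated start. Relative to that start, the runs shown begin at 9 (Rps12), -2 (Rps21), -17 (Rpl34), -5 (Rps9), 7 (Rps19), -17 (Rpl4), -20 (Rpl5) and -1 (Rps6). With lengths of 13 and 9, those of Rpl4 and Rpl5 end before the annotated start. Whether a run forms the 5′ end of an mRNA was not tested. Rps12, Rps21, Rpl34, Rps9 and Rps19 are the members with such a run among the 10 with the largest rise between early and late days. Of the other members among these, Rpl10, Rpl22, Rpl37a and Rps28 have no such run in the listed promoters and Rplp1 is not in the promoter table, so they are not shown. Rpl4, Rpl5 and Rps6 are those called lower than sham on day 3 at an adjusted p below 0.05.
Rps12 (chr10:23787180-23787209, minus strand): accgccggCCTTTTCCCCTgccgccgccga
Rps21 (chr2:180257369-180257398, plus strand): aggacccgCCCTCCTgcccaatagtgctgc
Rpl34 (chr3:130730333-130730362, minus strand): ctcacccgCCCCTTCCTTTTCCTCTTCCgg
Rps9 (chr7:3704028-3704057, plus strand): cgccttgtCTCTCTTTgtctcgggcctgag
Rps19 (chr7:24884911-24884940, plus strand): gtggagggCTCTCCCacgcggtcaccacgc
Rpl4 (chr9:64173362-64173391, plus strand): tgacaagtCTTTCCTTTTCCTgtgggagca
Rpl5 (chr5:107900500-107900529, plus strand): tacagccaCTCTTTCTCacgtcgcttgcgt
Rps6 (chr4:86857347-86857376, minus strand): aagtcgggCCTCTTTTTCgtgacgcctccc

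A promoter was listed for 42 of the 53 members, and 27 of these (64.3%) held such a run, against 38.7% of 17492 protein-coding genes. The run was present in 13 of 22 members that rose late (59.1%) and in 11 of 17 tested members that did not pass (64.7%). The motif CCGGAAG, the core read by ETS family factors, searched on both strands from 250 bases before to 50 after the start, stood in 16 of 42 members (38.1%) and in 12.9% of all genes. On the opposite strand it reads CTTCCGG, which can overlap a pyrimidine run.

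Signals are the deposited log2 values, on which a difference of 1 is a doubling. A gene was tested if its mean over 15 arrays was at or above the 50th percentile of named genes, 5.5125, and 50 of the 53 members were, 30 of the large subunit or stalk and 20 of the small subunit. Members were among the brighter genes of the array, with a median of their mean signals of 9.47, and 32 of the 53 lay above 9. The highest mean was that of Rps6 (12.39), the small subunit protein that S6 kinases phosphorylate. The lowest members tested, well above the filter, were Rps15a (6.85) and Rpl29 (6.87), and below it stood Rpl12 (4.62), Rpl7a (4.02) and the stalk protein Rplp2 (3.77, the lowest). These signals are of single probe sets with different lengths and sequences, so they do not rank the genes' mRNA levels. Ribosomal protein genes have many near-identical processed pseudogenes, so the probe sets may share signal with them and the source of a member's signal is uncertain to that extent.

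The arrays correlated with each other at 0.902 to 0.995 over the genes tested. All 15 cardiomyocyte markers passed the filter, with a median mean signal of 12.12, at the 99.9th percentile of named genes. In these bulk preparations, fewer cells of a type and less RNA per cell cannot be told apart. Over all genes tested, the median difference lay between -0.0414 and 0.0366 in each comparison. Adjusted p-values are from limma with Benjamini-Hochberg adjustment over 9969 genes, and a gene is said to rise or fall where that value was below 0.05.

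The clearest pattern among the members was a rise between the early iron days (1 and 3) and the late iron days (7, 14 and 28), a comparison that uses no sham array. In it 26 of the 50 members tested rose and 0 fell, while 10.3% of all genes rose and 11.7% fell. At an unadjusted p below 0.05 there were 37 members, against 36% of all genes. The difference was above 0 for 47 members (42.3% of all genes), and its median was 0.19 over the members and -0.03 over all genes. The signals on the 6 late arrays lay entirely above those on the 6 early arrays for 8 members (1.77% of all genes), and entirely below for 0 members (2.57%).

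**Figure D1:**
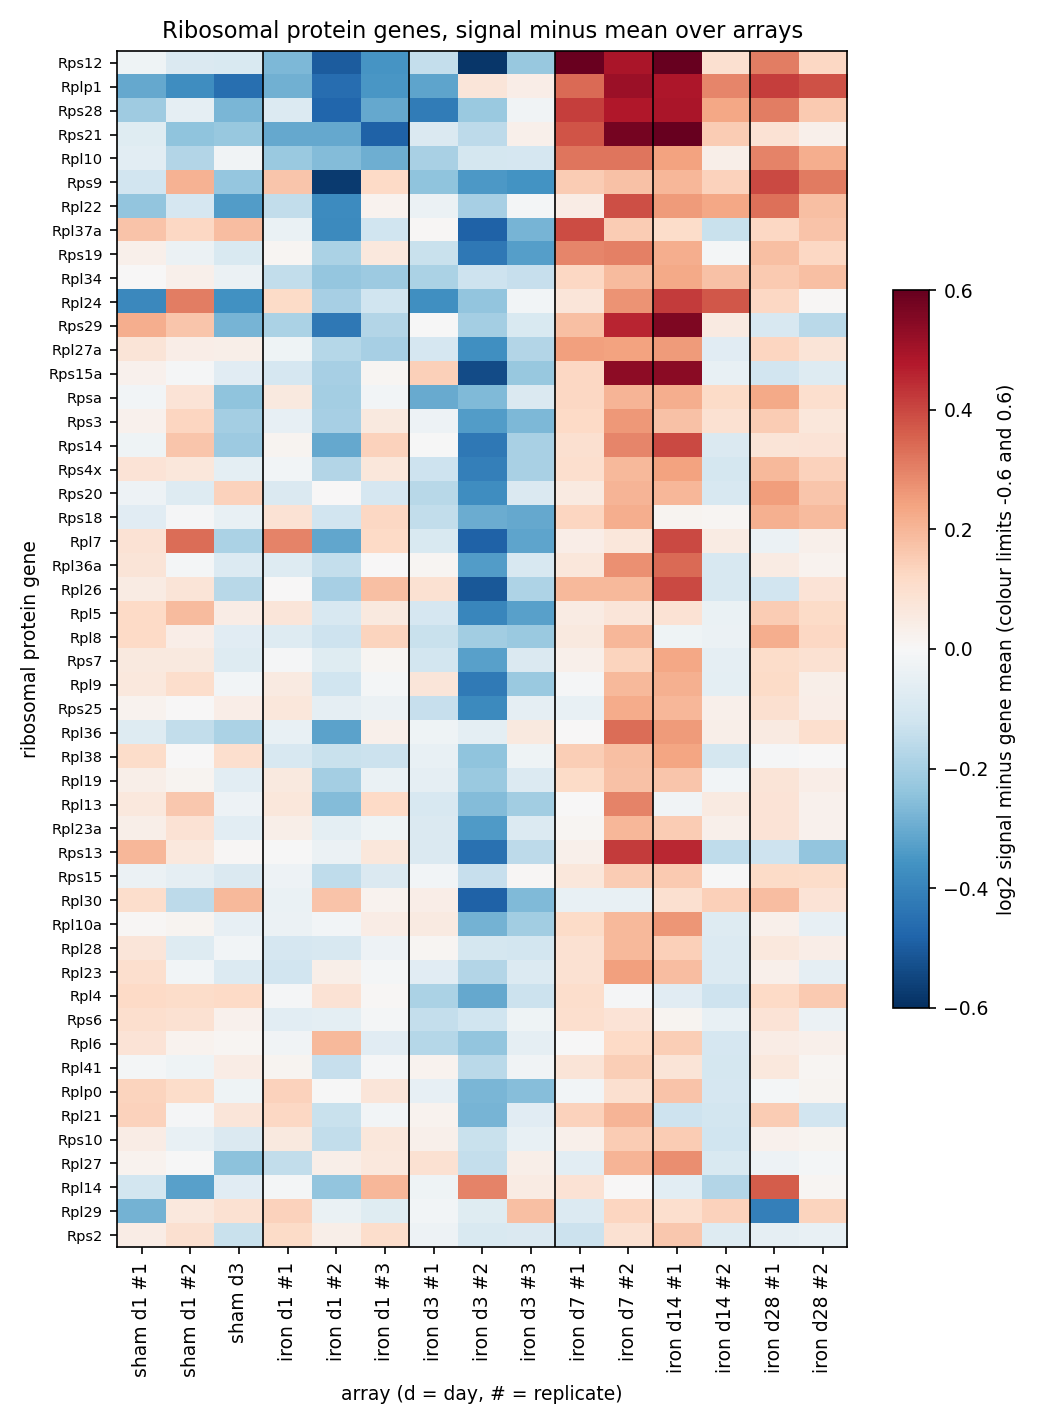
Log2 signal of the 50 tested ribosomal protein genes (rows, ordered by the late minus early difference) on 15 arrays (columns), each gene minus its mean over the arrays; red is above and blue below the gene's mean. The iron day 3 replicate 2 column is the bluest, and the 2 day 7 columns and day 14 replicate 1 are the reddest.

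**Figure D2:**
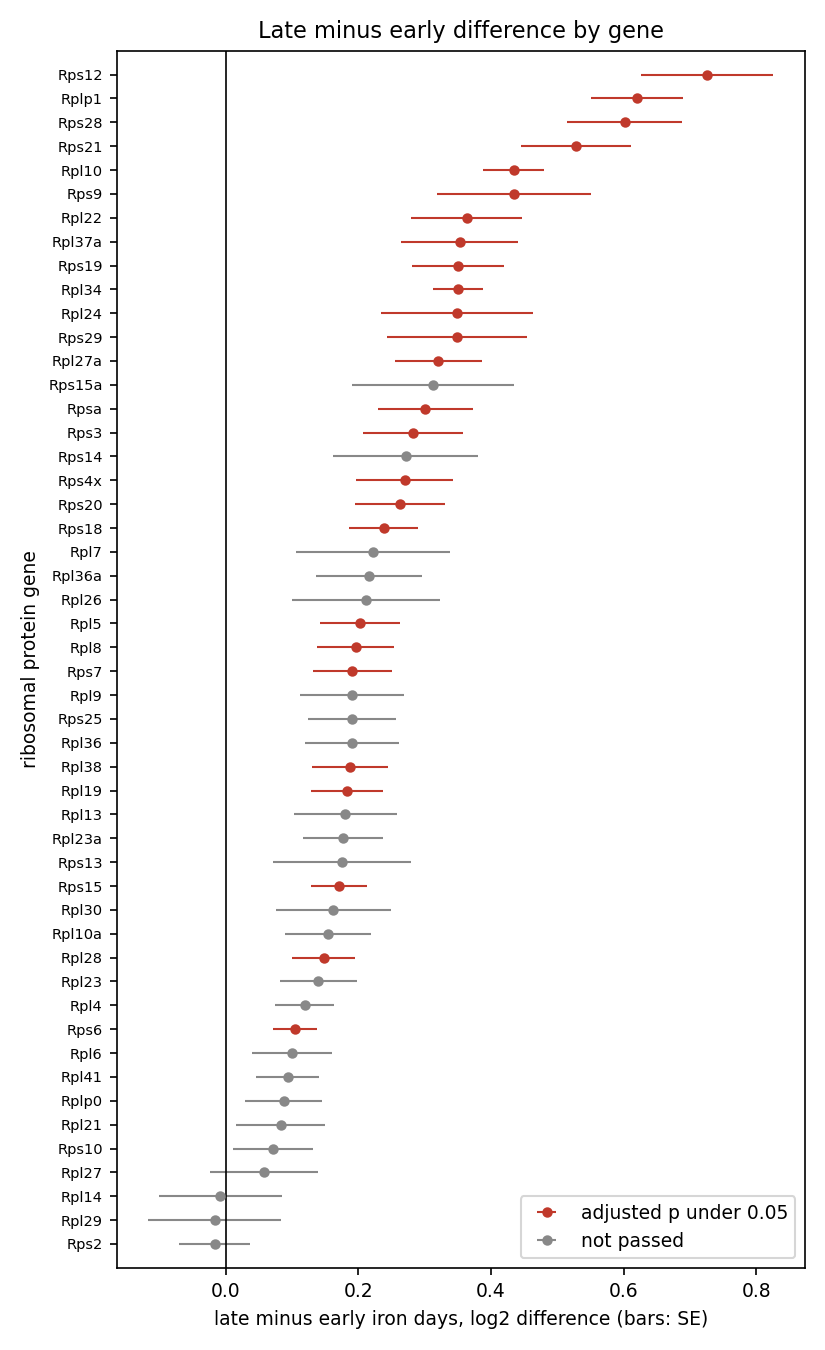
Late minus early log2 difference of each tested ribosomal protein gene, with bars of the standard error of the fit; red points passed at an adjusted p below 0.05. Differences run from -0.02 (Rps2) to 0.73 (Rps12), and 47 of 50 points lie right of 0.

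Small subunit genes made up 14 of the 26, of 20 tested, with a median difference of 0.27, and large subunit and stalk genes 12 of 30 with a median of 0.19. The difference between the subunits was not tested. The number that rose was lower without single arrays: 13 without iron day 28 replicate 1, 15 without iron day 3 replicate 2, and 16 without iron day 1 replicate 2 or without iron day 14 replicate 1. It was 17 after the arrays were centred on their medians, where 9.1% of all genes rose and 15.9% fell. In none of the 31 settings run for this comparison did a member fall. Rpl10, Rpl22, Rpl27a, Rpl34, Rplp1, Rps12, Rps21 and Rps28 rose in all 31.

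Rps12, a protein of the small subunit's beak, had the largest difference and also the widest range over the arrays among the members tested. Its signal on the early arrays was 6.94 at the lowest, 7.21 at the median and 7.38 at the highest, and on the late arrays 7.62, 7.92 and 8.19. The late minus early difference was 0.73 ± 0.1 (SE of the fit, 6 arrays against 6, limma adjusted p = 0.000556). The groups did not overlap, and the sham arrays (7.50 and 7.43 on day 1, 7.43 on day 3) stood between them. The 5 probe sets of Rps12 above the filter gave late minus early values from 0.42 to 0.73, the one used being the highest.

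Rplp1 encodes the stalk protein P1, which with its partners P0 and P2 recruits the elongation factors to the ribosome. The sham arrays gave 10.24 and 10.17 on day 1 and 10.09 on day 3, and the iron day 1 arrays 10.26, 10.09 and 10.20, so these overlapped. Iron day 3 gave 10.23, 10.62 and 10.59. Day 7 gave 10.89 and 11.06, day 14 gave 11.03 and 10.84, and day 28 gave 10.96 and 10.93. All 6 late arrays were above all 9 others, and the late minus early difference was 0.62 ± 0.07 (limma adjusted p = 0.000147). The other stalk gene tested, Rplp0, lay between 10.72 and 11.13 early and between 10.90 and 11.17 late, so its arrays overlapped, with a difference of 0.09 ± 0.06 (limma adjusted p = 0.303).

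Rpl10, which is loaded late in the making of the large subunit and lies beside its catalytic centre, gave 10.60 to 10.79 early (median 10.69) and 10.93 to 11.22 late (median 11.16). The arrays did not overlap, and the difference was 0.43 ± 0.05 (limma adjusted p = 0.000114, the smallest among the members). Its 4 probe sets above the filter differed, with late minus early values from 0.01 to 0.43. Rpl34, of the large subunit, had a narrow spread, from 10.33 to 10.44 early (median 10.39) and from 10.69 to 10.79 late (median 10.74), with a difference of 0.35 ± 0.04 (limma adjusted p = 0.000116). Its sham arrays, at 10.57, 10.59 and 10.53, lay between the 2 sets without touching either.

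Of the other small subunit genes, Rps28 ran from 8.37 to 8.82 early (median 8.58) and from 9.00 to 9.33 late (median 9.20), a difference of 0.60 ± 0.09 (limma adjusted p = 0.000731). Its 5 probe sets above the filter gave late minus early values from 0.21 to 0.60, the one used being the highest. Rps21 had early signals of 7.03 to 7.54 (median 7.28) and late ones of 7.54 to 8.15 (median 7.77), a difference of 0.53 ± 0.08 (limma adjusted p = 0.00121), with the lowest late array level with the highest early array. Both were highest on the day 7 arrays and on day 14 replicate 1. Rps9, a protein that bears on decoding accuracy, ran from 8.07 to 8.81 early and from 8.79 to 9.04 late, a difference of 0.43 ± 0.12 that passed (limma adjusted p = 0.0186) with overlap. It no longer passed without iron day 28 replicate 1, at 0.42. The other probe set of Rps9 above the filter gave 0.20.

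Rpl22, an RNA-binding protein of the large subunit, ran from 6.71 to 7.11 early and from 7.14 to 7.47 late, with a difference of 0.36 ± 0.08 (limma adjusted p = 0.00919) and no overlap. Rpl37a, a zinc-finger protein of the large subunit, ran from 8.73 to 9.22 early and from 9.07 to 9.60 late, a difference of 0.35 ± 0.09 (limma adjusted p = 0.0137). Its sham arrays (9.38, 9.33 and 9.40) lay within the range of the late ones. The 17 other members that rose had differences from 0.10 (Rps6) to 0.35 (Rps19). They included Rps3 (0.28), which lines the mRNA entry channel, and Rpsa (0.30), also known as the laminin receptor, each with late arrays entirely above early ones. Rpl38 (0.19), known for its part in translating Hox mRNAs, and Rpl5 (0.20), which carries the smallest rRNA of the large subunit, were also among them and passed in 17 and 18 of the 31 settings. The 4 probe sets of Rpsa above the filter gave late minus early values from 0.03 to 0.30, the one used being the highest.

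**Figure D3:**
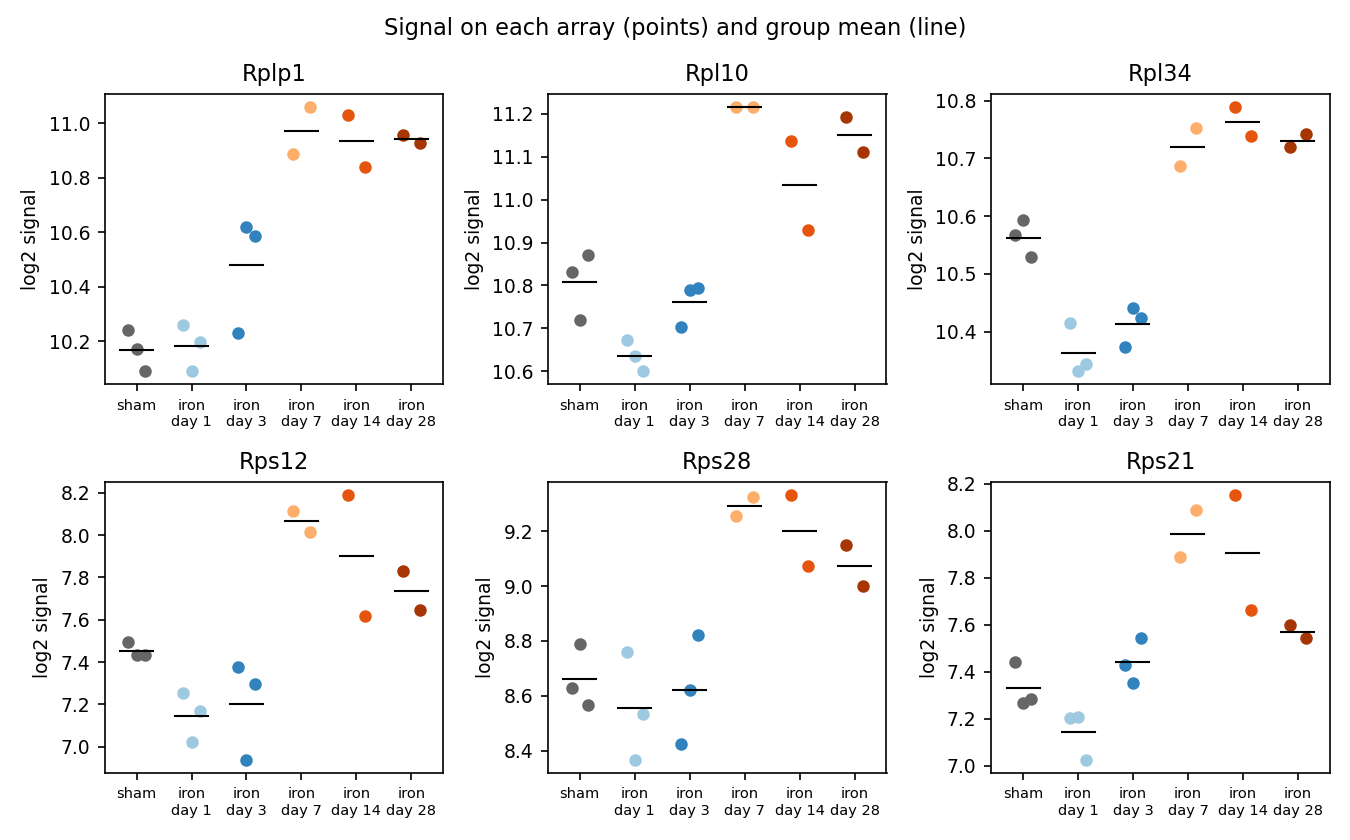
Log2 signal of 6 members on each array (points) with the group mean (line), for sham and 5 iron days; vertical scales differ. For Rplp1, Rpl10, Rpl34, Rps12 and Rps28 all late iron points (days 7, 14 and 28) lie above all early ones (days 1 and 3), and for Rps21 the lowest late point is level with the highest early one.

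Some members moved little. Rpl14 (-0.01), Rpl29 (-0.02) and Rps2 (-0.02) were the 3 members with a difference below 0. Rps2, the second brightest member, ran from 11.65 to 11.85 early and from 11.61 to 11.90 late, so its arrays overlapped throughout. Rps6 had the narrowest range of all members, from 12.25 to 12.38 early and from 12.34 to 12.49 late, and its difference of 0.10 ± 0.03 passed (limma adjusted p = 0.0374) here and in 14 of the 31 settings in all.

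The other probe sets of the same genes were not used for these calls. Of the members' 184 single-symbol probe sets, 104 that were not chosen lay above the filter, and 101 of these (97.1%) were higher late, against 43.7% of all probe sets above it. Their median difference was 0.22, and that of all probe sets -0.03. For the members that rose, all 55 such probe sets were higher late. The size of the difference varied within a gene in both directions. For Rps29 the probe set used was the lowest of 4 above the filter (0.35, up to 0.55). Probe sets of a gene share its RNA and may share sequence with its copies, so they are not independent measurements.

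**Figure D4:**
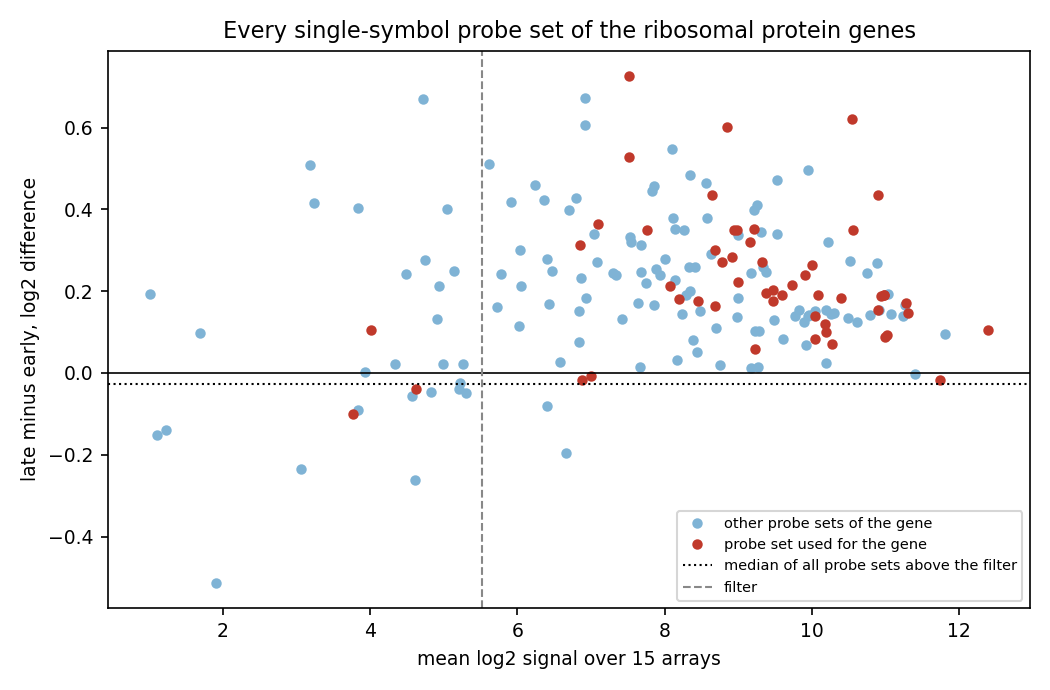
Late minus early log2 difference of each single-symbol probe set of the ribosomal protein genes (vertical) against its mean log2 signal over 15 arrays (horizontal); red points are the probe sets used for the genes, blue the others. Right of the dashed filter line, 148 of 154 points lie above 0, and the dotted line marks the median of all probe sets above the filter, -0.03.

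Against sham, the members lay mostly below on day 3 and mostly above on day 7. These comparisons share the 3 sham arrays and are given side by side. On day 1, 0 members passed with limma, and the median was -0.05 (0.03 over all genes). The smallest adjusted p on day 1 was that of Rpl34, at -0.20 ± 0.05 (limma adjusted p = 0.276), and 0.0602% of all genes fell and 0 rose. Rpl37a differed by -0.34, Rpl10 by -0.17 and Rps6 by -0.12, and none of these passed.

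On day 3, 42 members were below sham (42.9% of all genes) and 8 above (57.1%), with a median of -0.18, against 0.04 over all genes. The 3 day 3 arrays lay entirely below the 3 sham arrays for 21 members (15.8% of all genes) and entirely above for 2 (19.8%). The test called 3 members lower and 0 higher, where 5.25% of all genes were lower and 2.79% higher. The share of members called lower was thus near that of all genes. The lowest of the 15 arrays was a day 3 array for 34 of the 50 members (15.4% of all genes).

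The members that fell on day 3 were Rpl4, Rpl5 and Rps6. Rpl4, which lines the exit tunnel of the nascent chain, gave 10.29, 10.28 and 10.29 on the sham arrays and 9.98, 9.87 and 10.04 on the day 3 arrays, a difference of -0.32 ± 0.06 (limma adjusted p = 0.0116). Rpl5 gave 9.59, 9.66 and 9.52 on sham and 9.37, 9.08 and 9.15 on day 3, a difference of -0.39 ± 0.08 (limma adjusted p = 0.0182). In neither gene did the arrays overlap. Rps6 gave 12.49, 12.48 and 12.41 on sham and 12.25, 12.27 and 12.36 on day 3, a difference of -0.17 ± 0.05 (limma adjusted p = 0.043), a call lost in 14 of 27 alternatives, among them the removal of any 1 sham array. Rpl37a had the largest fitted difference, -0.41 ± 0.12, and did not pass (limma adjusted p = 0.058).

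Iron day 3 replicate 2 was the lowest of the day 3 arrays for many members, and without it 0 members were called on day 3, with Rpl4 at -0.28, Rpl5 at -0.33 and Rps6 at -0.16. Without sham replicate 1, a day 1 array, 1 member was called. Median centring of the arrays gave 10 lower and 0 higher members (9.43% of all genes lower, 1.26% higher), and array weights gave 13 lower and 1 higher (10% and 6.93%). With the replicate number as a block, or with the sham day 3 array alone as control, 0 were called. The median over the members stayed below 0 when any single array was left out, between -0.23 and -0.11.

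On day 7, 44 members were above sham (43.5% of all genes), with a median of 0.15 against -0.03 over all genes. The member median was 0.07 after median centring, which shifted all genes by -0.08. Both day 7 arrays lay above all 3 sham arrays for 23 members (15.3% of all genes) and below them for 1 (22.5%). Of the 50, 5 rose and 0 fell, where 1.94% of all genes rose and 2.67% fell. They were Rplp1 (0.80 ± 0.11, limma adjusted p = 0.00289), Rps21 (0.66 ± 0.13, adjusted p = 0.0182), Rps28 (0.63 ± 0.14, adjusted p = 0.0248), Rps12 (0.61 ± 0.16, adjusted p = 0.0459) and Rpl10 (0.41 ± 0.07, adjusted p = 0.0113). For each of the 5, both day 7 arrays lay above all 3 sham arrays. The other probe sets of Rpl10 above the filter gave 0.14, 0.15 and 0.20 on day 7, well below the 0.41 of the one used. Those of Rps12 ran from -0.09 to 0.56, those of Rps28 from 0.27 to 0.89, and that of Rplp1 gave 0.65. The call of Rps12 was lost in 18 of 27 alternatives, among them the removal of any 1 sham or day 7 array, and that of Rps28 in 10. The number called was 1 without iron day 7 replicate 1, 2 without iron day 7 replicate 2 and 3 without any 1 of the sham arrays.

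On day 14, 1 member rose and 0 fell (0.592% of all genes rose and 0.241% fell), and this was Rplp1, at 0.77 ± 0.11 (limma adjusted p = 0.00323). The day 14 arrays were unlike each other, with a mean over the members of 0.23 on replicate 1 and -0.0003 on replicate 2 after each gene was centred over the arrays. The member median of 0.08 on day 14 was 0.04 after median centring, 0.20 without replicate 2 and -0.03 without replicate 1, and the numbers called were 2 and 0. Without sham replicate 2 it was 2. Rps21 (0.58), Rps28 (0.54) and Rpl22 (0.47) did not pass.

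On day 28, 2 members rose and 0 fell, against 1.41% of all genes that rose and 0.582% that fell. They were Rplp1, at 0.77 ± 0.11 (limma adjusted p = 0.00233), and Rpl10, at 0.34 ± 0.07 (limma adjusted p = 0.0287). Rpl10 was 11.19 and 11.11 on day 28 and 10.83, 10.72 and 10.87 on sham, without overlap, but with the mean of its probe sets the difference was 0.11 and did not pass. The number called was 0 without iron day 28 replicate 1, and 1 without iron day 28 replicate 2, sham replicate 1 or sham replicate 2. The member median was 0.05, against 0.02 over all genes, and -0.06 after median centring. Centring shifted all genes by -0.11 in this comparison, members and others alike.

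Over all iron days against sham, 1 member rose and 0 fell (0.672% of all genes rose and 0.461% fell). This was Rplp1, at 0.53 ± 0.08 (limma adjusted p = 0.00394), and it did not pass with the replicate block (0.48) or with the sham day 3 array alone as control (0.61). The member median was 0.02 here and 0.0006 over all genes, and it was -0.04 after centring. Among the iron days themselves, without sham, an F test called 11 of 50 members, where 19.2% of all genes passed. The number was 7 without iron day 3 replicate 2 and 22 without iron day 14 replicate 2. Rpl10 had the largest F (24.9, limma adjusted p = 0.00103), followed by Rpl34 (22.6), Rplp1 (22.1), Rps21 (14.04), Rps12 (14.04), Rps28 (12.7), Rps18 (10.3) and Rps19 (8.77).

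For the sham day 3 array minus the sham day 1 arrays, the member median was -0.09, and -0.11 for the small subunit. Over all genes the median was -0.04, with quartiles of -0.18 and 0.10. With 1 array on one side the test has little precision, so only differences are given. Rps29 (-0.47), Rpsa (-0.27), Rps3 (-0.28) and Rps2 (-0.20) were the members with the smallest p. Among other genes, the lymphocyte marker Cd3e (1.15) and the airway list's Krt8 (2.05) and Sftpa1 (0.96) were higher on the day 3 sham array. With this array alone as control the member median was -0.10 on day 3, 0.20 on day 7 and 0.01 on day 1, where it was -0.08 against the sham day 1 arrays alone.

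A mean over the 50 members, each gene centred over the arrays, gave 1 value per array. Sham day 1 gave 0.01 and 0.02, and sham day 3 gave -0.08. The early iron arrays ran from -0.27 to -0.02, and the late iron arrays from -0.0003 to 0.23. The early and late arrays did not overlap, and the sham arrays lay below 5 of the 6 late arrays. For 46 of the 50 members the highest of the 15 arrays was a late iron array (42.5% of all genes).

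Markers of other cell types moved in the same comparison. Between early and late iron days, 11 of 13 fibroblast markers rose (median 0.64), as did 9 of 11 macrophage and monocyte markers (0.93) and 4 of 13 endothelial markers (0.48). Of 11 lymphocyte markers on the array only 4 passed the filter, and the filter bears on their direction, since Cd4 was at 4.85 to 5.29 on the early arrays and up to 8.14 late, so no count is given for them. Of 15 cardiomyocyte markers 6 fell and 0 rose, with a median of -0.09. Smooth muscle and pericyte markers fell in 1 of 7, and 0 of 3 red cell markers passed. Of 11 airway epithelium markers on the array 6 passed the filter, and 1 of these, Krt18, was called higher late. Krt18 was at 5.03 to 5.81 early and 5.91 to 7.41 late, and Thy1 of the fibroblast list at 5.25 to 6.01 and 5.62 to 8.87. The filter bears on the direction of these too. None of the 8 neutrophil markers passed the filter, nor did Tcf21 of fibroblasts, Cd14, Fcgr1, Cd163 and Itgam of macrophages, Cd3d, Cd8a and Ms4a1 of lymphocytes, Myh11 and Tagln of smooth muscle or Sftpc and Epcam of the airway list.

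Marker means varied over the arrays, some along with the ribosomal protein genes. The cardiomyocyte mean ran opposite to them: it was -0.01 to 0.06 on sham, 0.02 to 0.10 early and -0.16 to -0.01 late, early and late did not overlap, and it was highest on iron day 3 replicate 2, where the members were lowest (-0.27). The fibroblast mean ran from 0.50 to 0.79 on the sham arrays, from -0.82 to 0.41 on the early iron arrays and from -0.29 to 0.50 on the late ones, so each sham array was level with or above the highest late array, while the ribosomal protein mean was lower on sham than on 5 of 6 late arrays. The macrophage mean was 0.27 to 0.59 on sham, -0.91 to 0.23 early and -0.20 to 1.31 late, lowest on iron day 3 replicate 2 and highest on the day 7 arrays, and the endothelial mean 0.30 to 0.66, -0.81 to 0.64 and -0.36 to 0.45. A lymphocyte mean would rest on the 4 markers that passed the filter, which bears on their direction, so none is given. On day 3, when the members were lowest, 10 of 13 fibroblast, 9 of 13 endothelial and 9 of 11 macrophage markers fell against sham, and 0 of 15 cardiomyocyte markers passed. The part of these cell types in the members' differences was not tested.

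**Figure D5:**
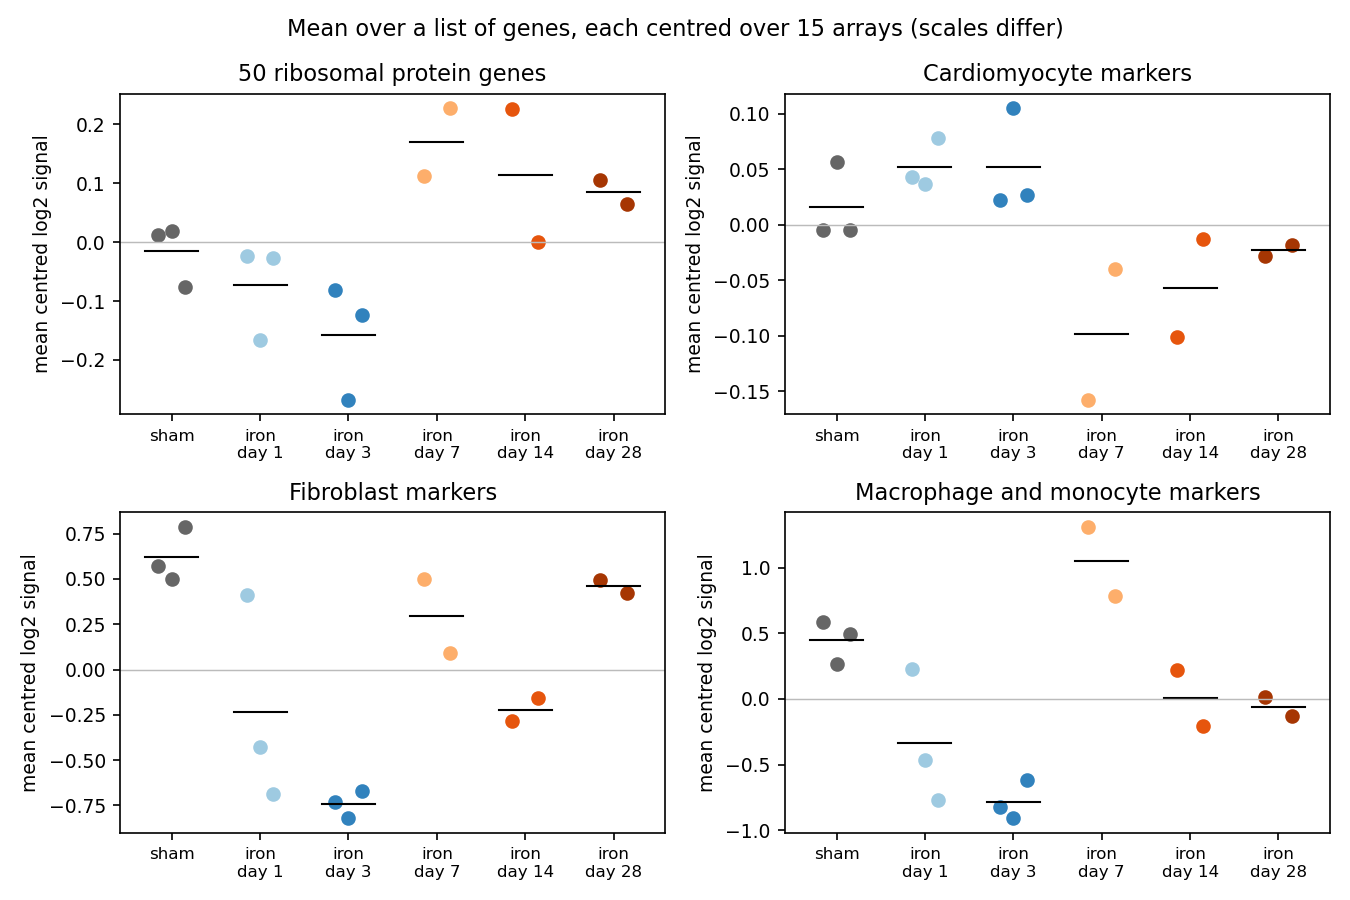
Mean over a gene list on each array (points, with the group mean as a line), each gene's log2 signal centred over 15 arrays, for the ribosomal protein genes and 3 marker lists; vertical scales differ. Ribosomal protein genes are lowest on iron day 3 and highest on day 7, while fibroblast markers are highest on the sham arrays.

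The other genes of the ribosome and of translation were taken from lists. Of ribosome components outside the symbol rule, both that were tested rose late: Fau (0.27 ± 0.05, limma adjusted p = 0.00246), whose product is cut to a small subunit protein and a ubiquitin-like part, and Rps3a1 (0.27 ± 0.07, limma adjusted p = 0.0215). Fau ran from 9.92 to 10.14 early and from 10.21 to 10.37 late without overlap. Of the ribosomal protein paralogues and like genes, 0 of 7 passed. Rpl3l, the muscle form of Rpl3, was at -0.07 ± 0.1 (limma adjusted p = 0.657) with overlapping arrays.

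The counts in the translation lists are to be read against the 10.3% of all genes that rose and the 11.7% that fell. Among elongation and nascent chain factors, 2 of 17 rose and 1 fell between early and late days. Eef1a1, which brings aminoacyl-tRNA to the ribosome and whose mRNA also carries the tract, rose by 0.98 ± 0.16 (limma adjusted p = 0.00158) and had fallen on day 3 (-1.31 ± 0.23, limma adjusted p = 0.00777). Pabpc1, the poly(A)-binding protein, rose by 0.58, and Eef2k, the kinase that inhibits elongation factor Eef2, changed by -0.49. Of 33 initiation factors, 0 rose and 4 fell, among them Eif4g2 (-0.16), Eif4e (-0.28) and Eif2b1 (-0.23).

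Of 60 ribosome assembly factors, 2 rose and 1 fell, with a median of -0.0014. Those were Npm1 (0.23), a nucleolar chaperone, Nol9 (0.19) and Riok2 (-0.25), a kinase of small subunit maturation. On day 3 against sham, 1 of the 60 fell, Npm1 (-0.42), and 1 rose, Nop10 (0.42), where 5.25% of all genes fell and 2.79% rose. Nop10 also rose against sham on day 14 (0.60). In the list for RNA polymerase I and rRNA transcription, 3 of 16 rose, Myc (0.53) among them, and 2 fell, the polymerase subunits Polr1a (-0.32) and Polr1e (-0.39). Myc lay at 5.11 to 5.56 on the early arrays and 5.21 to 6.70 on the late ones, beside a filter of 5.5125. The filter thus bears on its direction, as for Cd4. In the list for mTOR and S6 kinase signalling, 3 of 22 rose and 5 fell. They included Pdcd4 (0.45), an inhibitor of the helicase Eif4a, Rps6ka5 (-0.41) and Mtor (-0.28).

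Introns of ribosomal protein genes also hold small nucleolar RNAs (snoRNAs), which guide the modification of other RNAs. Of 38 snoRNA genes that lie within a member, 11 were on the array under a single symbol and 4 were tested, and whether they lie on the host's strand was not checked. Snora3 (chr7:109520132-109520251, GRCm38.p6), within Rpl27a, rose by 2.29 ± 0.25 between early and late days (limma adjusted p = 0.000127), while Rpl27a itself rose by 0.32 ± 0.07 (limma adjusted p = 0.00537). Snora21, within Rpl23, rose by 1.35 ± 0.10, and its host was at 0.14 ± 0.06 and did not pass. Snord15b, within Rps3, rose by 1.33 ± 0.09, and its host by 0.28 ± 0.08. Snora52 rose by 0.74 ± 0.12 (limma adjusted p = 0.00114), and its host Rplp2 was below the filter. The late minus early values of the snoRNAs were larger than their hosts' in all 3 pairs. The other snoRNAs on the array lay below the filter, with means from 3.96 (Snord15a) to 5.48 (Snora33). Snord15b had a mean of 6.13, which includes its higher late arrays. The filter thus favours snoRNAs that rise and bears on which pairs could be compared, so no more is read from these 3 pairs. On day 3 against sham, host and snoRNA went opposite ways in all 3. Snora21 was at 0.51 (limma adjusted p = 0.0353) and Rpl23 at -0.11. Snora3 was at 1.15 and Rpl27a at -0.27, and Snord15b at 0.36 and Rps3 at -0.20, none of which passed. The difference within a pair was not tested.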

How the data were processed

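RNA of 15 samples of isolated left ventricular cardiomyocytes was measured on 34760 probe sets. The deposited values are log2 signals that the authors had normalized. MAS5 is listed in the submitters' processing notes, with its role and version not given in the sources used here. A single gene symbol was annotated for 21640 probe sets, several for 1321 and none for 11799. Each gene was represented by the probe set with the highest mean, and genes in the upper 50% by mean were tested.

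Genes were fitted with limma 3.58.1 in R 4.3.3 as 6 group means (sham and 5 iron days) with an intensity trend and 9 residual degrees of freedom, and p-values were adjusted over 9969 genes at a threshold of 0.05. The pipeline was tested on simulated data. The number of arrays (1 to 3 per group and day) limits the precision.

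Members named were all that passed where 10 or fewer did, otherwise the 8 with the largest difference, where fewer than 4 passed the 4 of lowest p, and for the F test the 8 of lowest p, besides those at the extremes of signal and range and at the filter. Of 7 pathway lists and 9 marker lists, up to 3 genes per list were named. Others named were chosen after their values were seen. The members, lists and tests were chosen with earlier results of these data known.

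Alternatives were quantile normalization, median centring, no filter, a stricter filter (6646 genes), no trend, array weights, a replicate block, the mean of a gene's probe sets, a fit of all probe sets, a fit of the compared arrays alone, sham of a single day, and leaving out each array. Other choices of early and late days were added after the data were seen. Tables used pandas 2.3.3 and numpy 2.4.6 and figures matplotlib 3.10.9 in Python 3.11.15. The proton-exposed samples were not analysed here.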

Additional observations from a re-analysis of the deposited data

Results flagged for a closer look

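Levels of some ribosomal protein genes differed between the collection days of the exposed cells by a direct test, which uses no sham array. Between early and late iron days, 26 of the 50 members tested differed, each higher late (10.3% of all genes). In the F test among the 5 iron days, 11 members passed in limma, a share near the 19.2% of all genes that passed, and their adjusted p-values were 0.00103 for Rpl10, 0.00143 for Rpl34, 0.00148 for Rplp1, 0.00504 for Rps12, 0.00504 for Rps21, 0.00641 for Rps28, 0.0113 for Rps18, 0.0161 for Rps19, 0.0211 for Rpl4, 0.0298 for Rpl27a and 0.0379 for Rpl5. Of these, Rpl4 alone did not pass in the comparison of early with late days (0.12, adjusted p = 0.0692), and it was lowest on day 3. No group holds 4 or more arrays, so single arrays were not tested as outliers.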

How the results depend on the processing

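The late minus early difference of the members kept its direction in every setting run (median 0.13 to 0.28), and the number called was not within 1.5 times of 26 in these settings: 17 after median centring, 10 with day 1 alone as early and 14 with days 14 and 28 alone as late. Leaving out single arrays gave 13 to 33. The F test called 23 with array weights and 7 to 22 without single arrays. On day 3 the number called was 10 after centring, 14 with array weights, 0 with the sham day 3 array alone, and 0 to 4 without single arrays. On day 7 it was 3 with array weights, with the mean of a gene's probe sets or with the sham day 1 arrays alone, 1 with only the arrays compared or with the sham day 3 array alone, and 1 to 5 without single arrays. On day 14 it was 2 after quantile normalization and 0 to 2 without single arrays, where the median ran from -0.0297 to 0.1979. On day 28 it was 10 with array weights, 1 after centring, without the trend, with the mean of probe sets, with only the arrays compared or with the sham day 3 array alone, and 0 to 2 without single arrays, and the median was -0.0616 after centring. Over all iron days it was 0 with the sham day 3 array alone, and the median ran from -0.01 to 0.04 without single arrays. The other medians without single arrays ran from -0.08 to -0.0040 on day 1, -0.23 to -0.11 on day 3, 0.09 to 0.20 on day 7, 0.03 to 0.09 on day 28 and 0.16 to 0.24 for late minus early. On day 1, 0 members were called in every setting. The share of all genes called also moved with the setting, so these counts are not read as being about the members alone. For late minus early it was 9.1% higher and 15.9% lower after centring. On day 3 it was 6.93% higher and 10% lower with array weights, against 2.79% and 5.25% in the main fit. None of the causes of the changes between settings was tested.

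Replicate numbers were not used to pair the samples. Deviations of same-numbered arrays correlated at -0.394 to 0.565 in 31 pairs, with a median of 0.0616, and above 0.1 in 11 of them, against 14 of 50 pairs of other numbers. With the replicate number as a block, 23 members were called late against early, 10 in the F test, 0 on day 3, 3 on day 7 and 0 over all iron days.

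Centring moved the share of higher calls over all genes. It was 46.8% as deposited and 36.4% after centring for late minus early, 34.7% and 11.8% on day 3, 42.0% and 16.8% on day 7, 71.1% and 47.6% on day 14, 70.9% and 34.2% on day 28, and 59.3% and 26.1% over all iron days. Quantile normalization moved it to 58.9% on day 28. Members named singly kept their direction in each setting run, with 79 calls lost and 8 gained.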
